A study of Mus musculus with 146 samples.

Results

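The Id genes and Smads measured here are 9 genes, Id1, Id2, Id3, Id4, Smad1, Smad4, Smad5, Smad6 and Smad7, found by their symbols among the 52605 gene symbols of the data. They were looked up in 146 single cells, picked as germ cells by mouth pipette from 5 ovaries of newborn C57BL/6J mice of 1 litter (age 0.5 day). The authors removed cDNA that held Foxl2. Each labelled cell has 1 Smart-seq2 library with ERCC spike-in RNA. Levels are given as TPM, a share of the cell's transcripts that is corrected for transcript length. The germ cell gene Ddx4 was the rule for keeping a cell: 1 cell without a Ddx4 read was left out, the lowest kept cell had 7.49 TPM, and all other cells were analysed. No agent was given, no allele was changed and there is no control group. The labels name no animal for a cell, so all cells are 1 sample, cells are not replicates, and no test or p-value is given. Every difference given describes these cells. In 7 pairs, all in cluster 2 below, both libraries were nearly the same: their log2(TPM + 1) over detected coding genes had a Pearson r of 0.989 to 0.996, where no other pair of cells passed 0.842 and the median pair had 0.64. The labels name each as a cell of its own, and the counts of each pair differed by somewhat more than sampling noise (chi-square per degree of freedom 1.59 to 4.23, against 242 for the next closest pair). These 14 libraries may hold only 7 distinct cells, and intervals of shares of cells count them as 14. Values given below with repeats counted once use the mean of each pair. Cells are also given by 3 clusters (19, 95 and 31 cells), rebuilt from 20 oocyte and meiosis genes, none of which is an Id gene or a Smad. The study used 20 marker genes, and its text names all of those taken here except Taf4b. Taf4b was added here to reach that number, so the set may differ from the study's.

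ID proteins (inhibitors of DNA binding) are small helix-loop-helix proteins without a basic region. They pair with E proteins such as TCF3, TCF4 and TCF12 and keep them from binding DNA, and in many cells their genes respond quickly to bone morphogenetic proteins (BMPs). BMP receptors phosphorylate SMAD1, SMAD5 and SMAD9, which move to the nucleus with the common partner SMAD4, while SMAD6 and SMAD7 are inhibitory Smads that hold the pathway back. In the newborn ovary, germ cells leave their cysts and are enclosed in primordial follicles, a step in which oocyte ligands of the TGF-beta family and basic helix-loop-helix factors such as SOHLH1 and FIGLA take part.

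Promoters are shown for Id2, Id3 and Id4, since promoters are among the places where BMP signals and helix-loop-helix factors may be read. Each runs from 250 bases before to 50 bases after the RefSeq start (GRCm38.p6), 5′ to 3′ along the gene. Capitals mark matches to GGCGCC (a GC-rich sequence bound by Smads), GTCTG (or CAGAC on the other strand) and CANNTG (the E-box of helix-loop-helix factors). The window of Id2 lies at chr12:25096043-25096342 on the minus strand, that of Id3 at chr4:136143572-136143871 on the plus strand and that of Id4 at chr13:48260866-48261165 on the plus strand. By the gene spans given below, the Id2 window lies inside its gene, whose 5′ end is at 25097140. The Id3 window also lies inside its gene, whose 5′ end is at 136143497. The Id4 window ends before its gene, which starts at 48261228.
Id2: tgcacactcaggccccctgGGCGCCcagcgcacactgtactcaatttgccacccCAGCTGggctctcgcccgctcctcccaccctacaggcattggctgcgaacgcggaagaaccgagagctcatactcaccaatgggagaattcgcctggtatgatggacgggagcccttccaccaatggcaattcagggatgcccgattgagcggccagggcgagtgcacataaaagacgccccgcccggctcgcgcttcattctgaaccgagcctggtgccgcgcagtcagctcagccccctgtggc
Id3: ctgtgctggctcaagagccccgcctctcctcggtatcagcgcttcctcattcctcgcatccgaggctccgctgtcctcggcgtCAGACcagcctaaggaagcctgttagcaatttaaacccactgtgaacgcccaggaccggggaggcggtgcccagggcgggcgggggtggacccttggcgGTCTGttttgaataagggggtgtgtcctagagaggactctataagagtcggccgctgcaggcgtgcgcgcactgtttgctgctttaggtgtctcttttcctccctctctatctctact
Id4: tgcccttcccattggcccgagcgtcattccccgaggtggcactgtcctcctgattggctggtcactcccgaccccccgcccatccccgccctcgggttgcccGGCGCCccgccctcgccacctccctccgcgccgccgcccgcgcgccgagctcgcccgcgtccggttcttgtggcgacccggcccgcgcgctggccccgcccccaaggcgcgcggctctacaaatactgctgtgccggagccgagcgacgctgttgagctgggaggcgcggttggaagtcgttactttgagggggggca

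The windows of Id2 and Id4 each held GGCGCC once, 231 and 148 bases before the start, and that of Id3 held none. Of all 32851 promoter windows in the table, 11.9% held GGCGCC on either strand. The Id3 window held GTCTG or CAGAC at 167 and 68 bases before the start, as did 49.6% of all windows at any place, and the windows of Id2 and Id4 held neither. An E-box lay only in the Id2 window among these 3, 196 bases before the start, while 72.3% of all windows held at least 1. These matches are a description of the letters in the window and show no binding. Id1, Smad4 and Smad7 have no entry in the table.

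The reads assigned to genes per kept cell ranged from 4074810 to 26855273 with a median of 9498860, and the number of genes with a read from 6450 to 16610. All 5 germ cell markers (Ddx4, Dazl, Sohlh1, Figla, Sycp3) reached 1 TPM in most cells, and 4 of them, all but Sohlh1, in every kept cell. For Ddx4 this was fixed by the rule for keeping cells. None of the 8 pregranulosa, 7 stroma and 7 endothelial markers did so in most cells. The summed level over the kept cells ranged from 0 to 16.99 TPM for pregranulosa, from 0 to 873 TPM for stroma and from 0 to 61.3 TPM for endothelial markers. Foxl2 itself was at 0 in the median cell, but it reached 1 TPM in 5 cells, with a highest value of 16.93 TPM. Haemoglobin transcripts were wider spread: the 7 blood markers summed to at least 100 TPM in 56 cells and to 325001 TPM in 1 cell of cluster 1. The rho between each Id gene and the summed markers of these 4 cell types lay between -0.17 and 0.22, and without the cells of 100 TPM or more of such markers, which left 85 cells, the rho of Id1 with Id3 was 0.52, that of Id2 with Id3 0.41, that of Id1 with Id2 0.09 (0.19 over all kept cells) and that of Id2 with Id4 -0.13 (-0.02). The part of other cells' RNA in the Id levels was not tested further.

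Id1, Id2 and Id3 were among the most abundant transcripts of these germ cells, and Id4 was not. By mean TPM, Id1 was number 11 of 13867 detected coding genes, Id3 number 60 and Id2 number 146, while Id4 was number 7590. A gene counts as detected when it had 0.1 TPM or more in at least 10 kept cells, which all 9 members passed. Id1 (ENSMUSG00000042745.9, chr2:152736251-152737410) ranged from 0 to 9977 TPM and had a median of 1824 TPM, a lower quartile of 845 TPM and a mean of 2389 ± 2082 TPM (SD over cells). Id3 (ENSMUSG00000007872.3, chr4:136143497-136145755) ranged from 0.27 to 5537 TPM and had a median of 796 TPM, a lower quartile of 438 TPM and a mean of 994 ± 846 TPM. Id2 (ENSMUSG00000020644.9, chr12:25093799-25097140) ranged from 0.072 to 6171 TPM and had a median of 410 TPM, a lower quartile of 157 TPM and a mean of 623 ± 716 TPM. Id4 (ENSMUSG00000021379.2, chr13:48261228-48266026) had a median of 3.61 TPM and a highest value of 54.02 TPM, and no read in 44 cells. With repeats counted once, the medians of Id1, Id2, Id3 and Id4 were 1667, 416, 759 and 3.04 TPM. The levels of these genes overlapped in the population as a whole.

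**Figure D1:**
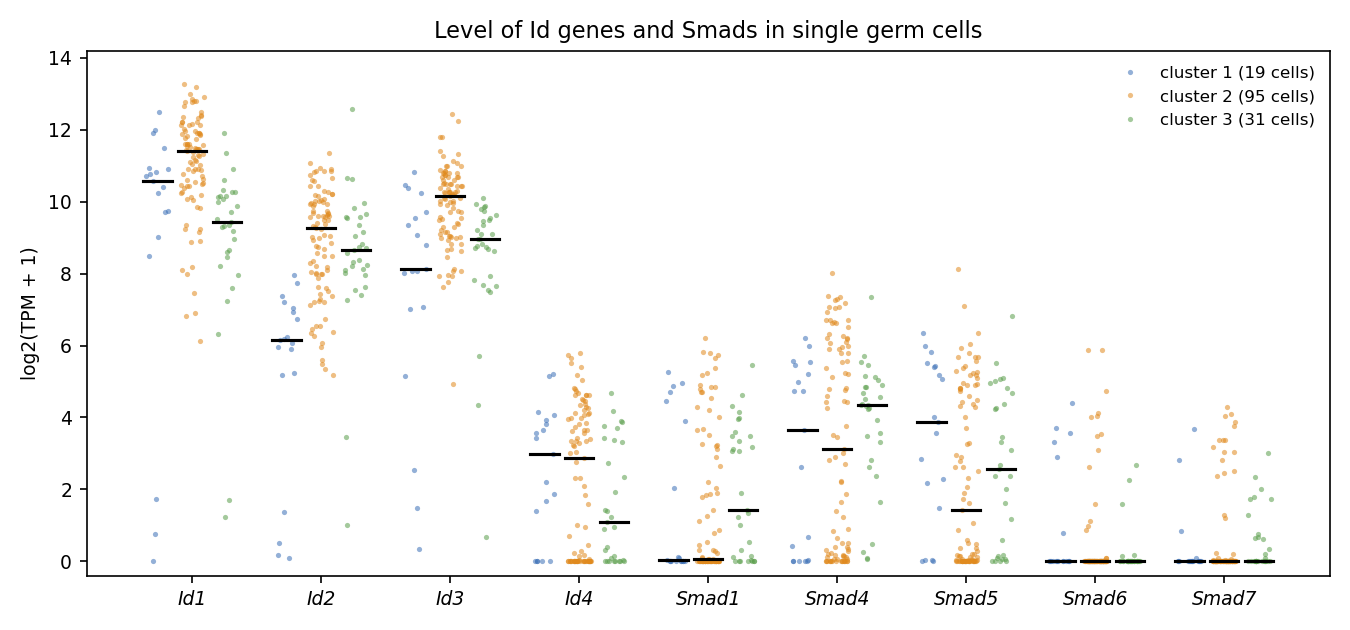
The plot gives log2(TPM + 1) of the 9 genes in each kept germ cell, by cell cluster (19, 95 and 31 cells); each point is 1 cell and the black bar is the median. Id1, Id2 and Id3 lie far above Id4 and the Smads in nearly all cells, and a few cells of clusters 1 and 3 lie near 0 for Id1 to Id3.

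Id1 exceeded Id2 in 86.2% of cells and Id3 in 80.7%, and Id3 exceeded Id2 in 73.1%. Id1 was the highest Id gene in 110 cells (75.9%, exact 95% interval 68.1 to 82.6%), Id3 in 23 cells and Id2 in 12 cells. With repeats counted once, the share for Id1 was 74.6%. Id4 was the highest in none, which with this number of cells leaves a share of up to 2.51%. Pooled over cells, Id1 made 59.5%, Id3 24.7%, Id2 15.5% and Id4 0.22% of all Id transcripts. The intervals of shares of cells are Clopper-Pearson intervals and cover counting error only.

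The 4 Id genes together summed to a median of 3522 TPM per cell, from 0.40 to 16730 TPM. The E proteins Tcf3, Tcf4 and Tcf12, the partners that ID proteins bind, summed to a median of 200 TPM, from 0.063 to 700 TPM. Id transcripts exceeded E protein transcripts in 140 cells, and by more than 10-fold in 10 of 19, 85 of 95 and 11 of 31 cells of clusters 1, 2 and 3. The ratio of the mean sums was 19.8. These are transcript levels, and the amounts of protein were not measured.

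Near-complete loss of Id transcripts was rare. All 3 of Id1, Id2 and Id3 reached 1 TPM in 140 cells, which left 5. In cell 36 all 3 were at 0.27 TPM or lower, with 8651 genes read and 171 TPM of Ddx4. The E protein sum was also low there, at 2.70 TPM against a median of 200 TPM over the kept cells. In the cell that held the most haemoglobin, Id1 was at 0.70, Id2 at 0.072 and Id3 at 4.86 TPM. Cell 12 had the highest Id2 of all cells, 6171 TPM, with 1.35 TPM of Id1 and 0.60 TPM of Id3. Another cell of cluster 3 had 2.29 TPM of Id1, 0.997 TPM of Id2 and 51.1 TPM of Id3, and cell 98 lacked Id2 (0.42 TPM) with 518 TPM of Id1. These cells were singled out after their values were seen.

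The spread of the abundant Id genes across cells was larger than that of spike-ins of like level. The coefficient of variation (SD over mean of TPM) was 0.87 for Id1, 1.15 for Id2 and 0.85 for Id3. Spike-ins within 2-fold of each gene's mean level varied by 0.60 (2 spike-ins), 0.61 to 0.71 (3) and 0.60 to 0.61 (2). Taken as a share of all spike-in TPM of the cell, the spike-in nearest to Id1 in level varied by 0.16. Of the coding genes within 2-fold of its level, 4 of 37 varied more than Id1, 7 of 354 more than Id2 and 12 of 197 more than Id3. Taken as such a share, all spike-ins near Id1, Id2 and Id3 varied by 0.16 to 0.33. For Id4 and the Smads, the coefficients of 1.31 to 3.77 lay within the range of the TPM of spike-ins of like level. With spike-ins taken as a share of spike-in TPM, the coefficient of Smad4 (1.40) lay above its 4 spike-ins (0.89 to 1.30). On TPM these 4 spike-ins had 1.16 to 1.56. Against such shares, Smad5 (1.82) lay within 0.86 to 2.13, and Smad1 (1.81) and Id4 (1.31) within 0.86 to 3.62. Smad6 (3.77) lay within 1.56 to 6.85 and Smad7 (2.59) within 2.36 to 6.85. In each comparison with shares only the spike-ins were rescaled. The coefficients of the genes stayed on TPM, so the 2 measures are unlike.

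**Figure D2:**
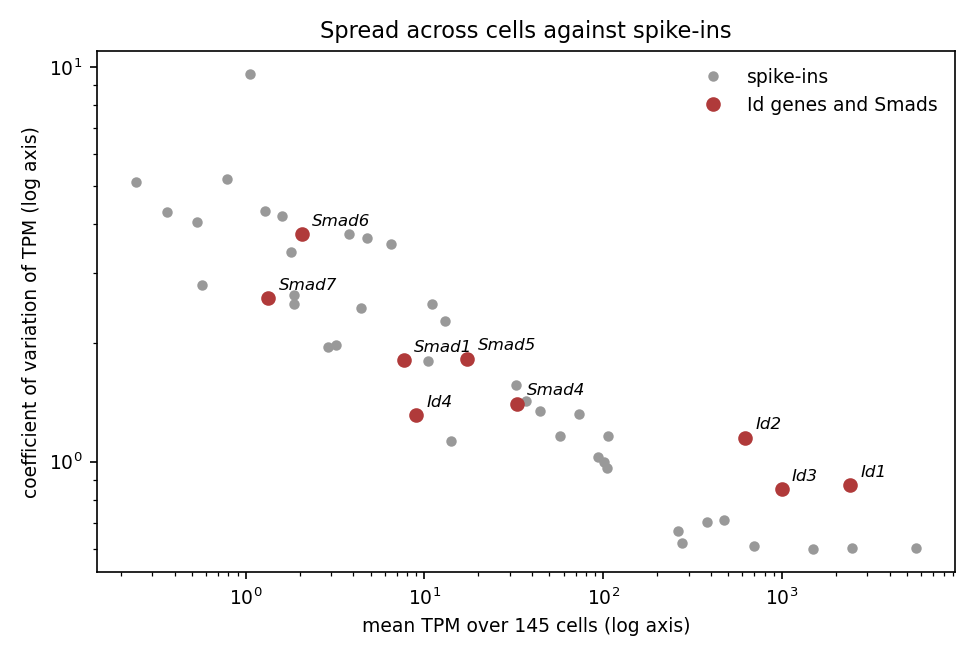
The plot gives the coefficient of variation of TPM over the kept cells against the mean TPM, both on log axes, for spike-ins (grey) and the 9 genes (red). Id1, Id2 and Id3 lie above the spike-ins of their level, at 0.87, 1.15 and 0.85, while Id4 and the Smads lie among them on this scale.

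The Smads were low and were read in only part of the cells. Smad4, the common partner, was the highest of the 5 listed Smads, with a mean of 32.9 ± 46.1 TPM, a median of 14.1 TPM and a highest value of 261 TPM. Smad5 followed with a mean of 17.3 ± 31.5 TPM (median 3.96, highest 278) and Smad1 with 7.64 ± 13.8 TPM (median 0.10, highest 73.5). The inhibitory Smads had a median of 0, with a mean of 2.06 ± 7.78 TPM for Smad6 (highest 58.2) and 1.34 ± 3.47 TPM for Smad7 (highest 18.7). The ranges of all 5 Smads overlapped, and whether neighbours in this order differ was not tested. The Smads lie at chr8:79338395-79399518 (Smad1), chr18:73639009-73703780 (Smad4), chr13:56703010-56742377 (Smad5), chr9:63953076-64022059 (Smad6) and chr18:75367529-75395935 (Smad7).

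At least 1 TPM of Smad4 was found in 66.2% of cells (exact 95% interval 57.9 to 73.8%), of Smad5 in 58.6%, of Smad1 in 42.8% (34.6 to 51.2%), of Smad7 in 17.9% (12.1 to 25.2%) and of Smad6 in 13.8% (8.63 to 20.5%). With repeats counted once the shares were 66.7%, 57.2%, 42.8%, 16.7% and 12.3% in the same order. Where found, the median level was 32.8 TPM for Smad4, 23.2 TPM for Smad5, 11.6 TPM for Smad1, 10.4 TPM for Smad6 and 6.56 TPM for Smad7. Spike-ins within 2-fold of the mean level of Smad6 had a read in 7.59 to 47.6% of cells and those near Smad4 in 68.3 to 91.03%, against 18.6% for Smad6 and 85.5% for Smad4. Reads thinned to 4100000 per cell gave at least 1 read of Smad1 in 79 cells, of Smad7 in 38 and of Smad6 in 25.

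Of the kept cells, 76 had Smad4 together with Smad1 or Smad5 at 1 TPM or more, and 37 had neither Smad1 nor Smad5 at that level. Smad1 and Smad4 were found together in 47 cells, where their separate shares would give 41.05 by multiplication, and Smad4 and Smad5 in 60 cells against 56.3. All 5 Smads were found in 1 cell and none in 13 cells. In the 76 cells with Smad4 and a BMP-type Smad, Id1 had a median of 1351 TPM (0.70 to 9355), and in the other 69 cells 2130 TPM (0 to 9977). For Id3 the medians were 659 and 963 TPM, for Id2 345 and 461 TPM and for Id4 5.73 and 1.15 TPM. The ranges of both sets overlapped for each gene. The highest values in the first set and in the other cells were 2636 and 6171 TPM for Id2 and 3592 and 5537 TPM for Id3. The first set also had more genes read, a median of 13611.5 against 11584, and the part of that in the Id levels was not tested.

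Of the Id genes, Id1 and Id3, Id2 and Id3, and Id1 and Id4 varied together across the kept cells at a rho of at least 0.3. Spearman's rho was 0.61 for Id1 and Id3, 0.44 for Id2 and Id3, 0.37 for Id1 and Id4, 0.25 for Id3 and Id4, 0.19 for Id1 and Id2 and -0.02 for Id2 and Id4. The median over the 6 Id pairs was 0.31, and over all 96139911 pairs of detected coding genes it was 0.04. A rho of at least 0.3 was reached by 3 of 6 Id pairs and by 1.15% of all pairs. It was reached by 4 of 6 Id pairs with Pearson's r of log2(TPM + 1) and after a fit on the order of cells (Id1 and Id2 at 0.46 in both), and by 4 of 6 per spike-in (Id3 and Id4 at 0.31). With repeats counted once, Id1 and Id3 gave 0.61, Id2 and Id3 0.47, Id1 and Id4 0.36 and Id1 and Id2 0.22, and the median over Id pairs was 0.29. Abundant genes are correlated more often: among the 212 coding genes with a mean of at least 500 TPM, 31.5% of pairs reached 0.3 and the median was 0.17. Points share the cell's library, depth and total RNA, the cells are of 1 litter, and the rho values have no p. The choice of Id1, Id2 and Id3 goes back to the study of these same cells, so their relation is not independent evidence.

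**Figure D3:**
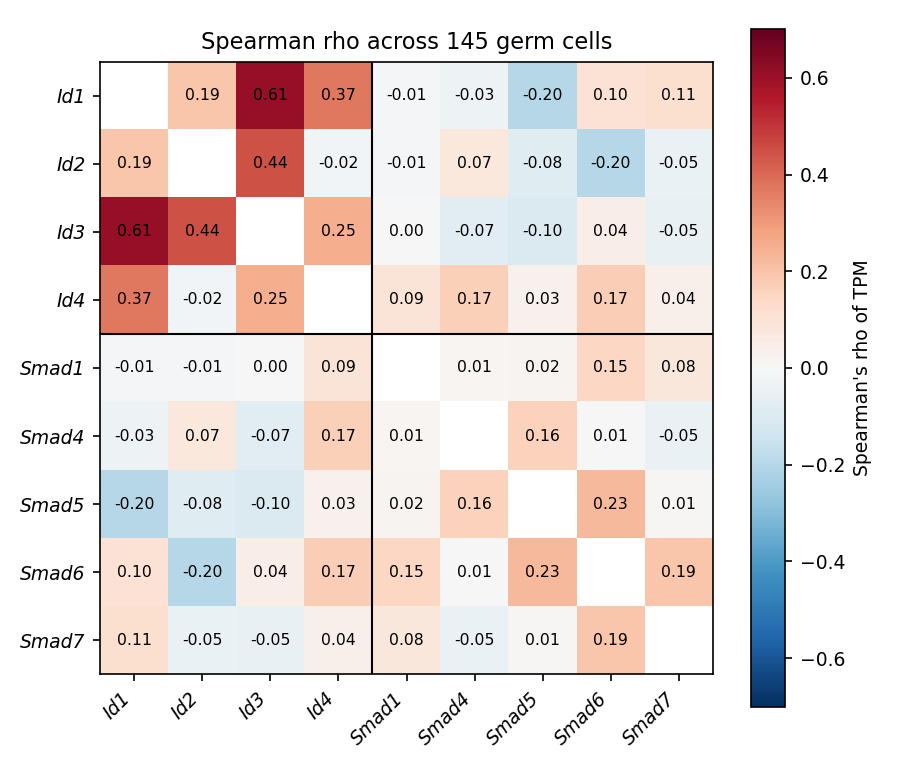
The grid gives Spearman's rho of TPM across the kept cells for each pair of the 9 genes, in numbers and in colour from blue (negative) to red (positive), with lines between the Id genes and the Smads. Positive values from 0.19 to 0.61 fill 5 of the 6 Id pairs, and the pairs with a Smad lie between -0.20 and 0.23.

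The pair of Id1 and Id3 did not rest on the cells without Id transcripts. Among the cells with both at 1 TPM or more, rho was 0.59, and it was 0.79 within cluster 1 (19 cells), 0.45 within cluster 2 (95 cells) and 0.60 within cluster 3 (31 cells). It was 0.59 on estimated counts scaled to each cell's total (CPM), 0.59 per spike-in and 0.58 after a fit on reads and genes detected. Id2 and Id3 gave 0.43 among 140 such cells, and 0.58, 0.37 and 0.37 within the 3 clusters. Id1 and Id2 gave 0.13 among the cells with both at that level, and 0.52, 0.06 and 0.37 within clusters 1, 2 and 3. After a linear fit of the ranks on the order of cells along the first component of the clustering genes, with which Id1 had a rho of -0.46 and Id2 one of 0.39, the rho of Id1 and Id2 was 0.46. For Id4 with Id1 the within-cluster values were 0.64, 0.37 and 0.25.

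**Figure D4:**
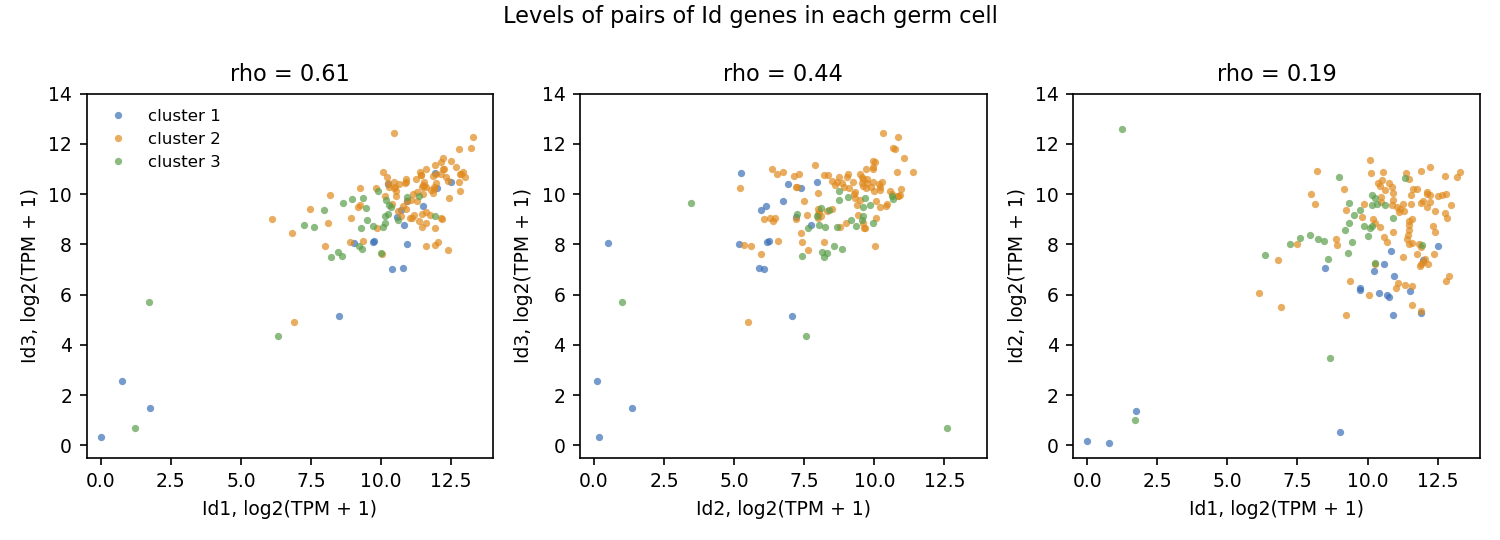
The 3 panels plot log2(TPM + 1) of Id3 against Id1, Id3 against Id2 and Id2 against Id1, with 1 point per cell coloured by cluster and Spearman's rho over the kept cells above each panel (0.61, 0.44 and 0.19). The cell at 6171 TPM of Id2 stands alone with low Id1 and Id3.

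Smad pairs had lower values over all kept cells. The median rho over the 10 Smad pairs was 0.05, with a lowest value of -0.05 for Smad4 and Smad7 and a highest value of 0.23 for Smad5 and Smad6. Smad1 and Smad4 gave 0.01, Smad1 and Smad5 0.02, Smad4 and Smad5 0.16 and the inhibitory pair Smad6 and Smad7 0.19. With repeats counted once the median over Smad pairs was 0.09. None of the 10 pairs reached 0.3 over all kept cells, beside 1.15% of all pairs of detected coding genes, so this is not particular to Smads. Within clusters, single pairs did: Smad4 and Smad5 gave 0.48 and Smad1 and Smad5 0.35 in the 19 cells of cluster 1, Smad1 and Smad6 0.36 in cluster 3 but -0.30 in cluster 1, and Smad6 and Smad7 0.30 in cluster 2. Among cells with both genes at 1 TPM or more, Smad5 and Smad6 gave 0.51 (16 cells), Smad4 and Smad6 0.47 (13 cells) and Smad4 and Smad7 0.43 (17 cells). These genes are sparse, with a read in 18.6 to 85.5% of cells, and a weak rho between sparse genes, or one over few cells, is no finding.

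No Id gene reached a rho of 0.3 in size with any of the 5 listed Smads over all kept cells. Of all pairs of detected coding genes, 1.15% reached 0.3 and 0.25% were at -0.3 or below. Such values are rare among all pairs, so their absence here is no result about these genes. Over the 20 pairs of an Id gene and a Smad the median rho was -0.004, from -0.20 for Id2 and Smad6 to 0.17 for Id4 and Smad6, with 10 pairs above 0. With repeats counted once the median was -0.02. Smad1 gave -0.01 with Id1, -0.01 with Id2, 0.003 with Id3 and 0.09 with Id4. Smad5 gave -0.20 with Id1 and Smad4 gave -0.03, 0.07, -0.07 and 0.17 with Id1 to Id4. Scaled per spike-in, the 4 values of Smad4 were 0.11, 0.29, 0.14 and 0.24, and Smad5 gave -0.08 with Id1. Among the 95 cells with both Id1 and Smad4 at 1 TPM or more, their rho was 0.18, and among the 84 with Id1 and Smad5 it was 0.03. The highest such values were 0.34 for Id3 and Smad6 (20 cells) and 0.31 for Id1 and Smad7 (26 cells). The lowest was -0.20 for Id2 and Smad1 (61 cells). Within the 31 cells of cluster 3, Smad4 gave -0.39 with Id1 and -0.47 with Id2, against 0.02 and 0.07 within cluster 2 and -0.06 and 0.44 within the 19 cells of cluster 1. The other values of 0.3 or more in size within a cluster were -0.35 for Id4 and Smad4 and 0.39 for Id2 and Smad7 in cluster 1, 0.31 for Id4 and Smad6 in cluster 2 and -0.31 for Id3 and Smad6 in cluster 3. With the number of genes read, the rho was -0.27 for Id1, -0.09 for Id2, -0.24 for Id3 and 0.14 for Id4, and from 0.075 for Smad6 to 0.27 for Smad4 among the Smads. With the reads on genes it was -0.33 for Id1 and between -0.18 and 0.13 for the others. Signalling through Smads is set by phosphorylation, which transcript levels do not show.

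Among all 13866 other detected coding genes, Id3 had the highest rho with Id1, and Id1 had the highest rho with Id3. Id2 was the second gene for Id3, while Id3 was number 11 for Id2, and Id1 was number 7 for Id4. Among the 7345 coding genes with a mean of at least 10 TPM, the genes next to Id1 after Id3 were Ajuba, which encodes a LIM-domain scaffold protein (rho 0.55), and Prdm16, a transcriptional regulator (0.49), and the farthest was Ift43, of the intraflagellar transport machinery (-0.55). The genes most like Id2 were Cnpy1 (0.48), the mannose-binding lectin gene Mbl2 (0.48) and Stat3, the transcription factor of cytokine signalling (0.48). The study names Stat3 as an Id2 target in a network inferred from these same cells, so its rho is a description only. The gene farthest from Id2 was the meiotic gene Meioc (-0.52). For Id3 the third gene was Syce3, of the synaptonemal complex (0.37), and the farthest was the proteasome activator gene Psme2 (-0.44). Id4 was most like Cdkn1c (0.40), which encodes the cell cycle inhibitor p57, with Hoxd8 (0.39) and Dync2h1 (0.37) next and Zfp644 at the other end (-0.29).

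For the Smads the closest genes reached no more than 0.44. They were Vat1 (0.44), Dph6 (0.40) and Insig1 (0.39) for Smad4, Exo1 (0.40), Gtf2e1 (0.39) and Cry2 (0.36) for Smad5, and Sipa1l3 (0.38), Gdap2 (0.35) and Epc2 (0.35) for Smad1. Genes near Smad6 were Zfp40 (0.41) and Hdac1 (0.40), and near Smad7 they were Ankrd13a (0.39), Gnai2 (0.37) and Sptbn1 (0.34). The farthest genes were Prkag1 for Smad1 (-0.38), Med31 for Smad5 (-0.27), Pfdn6 for Smad6 (-0.34) and Slf1 for Smad7 (-0.31). The highest of so many values is large by choice, and no shared function is read from these genes.

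The 3 clusters were compared to ask how the 9 genes differ along the course that the clustering genes trace. Id2 was the gene that differed most between clusters 1 and 2. Cluster 1 ranged from 0.072 to 246 TPM of Id2 (median 69.8, mean 84.8 ± 71.7). Cluster 2 spanned 35.6 to 2636 TPM (median 621, mean 711 ± 581), and cluster 3 spanned 0.997 to 6171 TPM (median 404, mean 685 ± 1090). The log2 ratio of mean TPM + 1 was 3.05 for cluster 2 over cluster 1 and -0.05 for cluster 3 over cluster 2, the latter -0.50 without cell 12. The lowest cells of cluster 2 lay within the range of cluster 1, while its median lay above the highest cell of cluster 1.

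Id1 was highest in cluster 2 and lowest in cluster 3. Cells of cluster 1 lay between 0 and 5795 TPM (median 1531), those of cluster 2 between 68.8 and 9977 TPM (median 2735) and those of cluster 3 between 1.35 and 3887 TPM (median 697). The log2 ratio was 0.82 for cluster 2 over cluster 1 and -1.76 for cluster 3 over cluster 2. Id3 was also highest in cluster 2, with medians of 281, 1142 and 501 TPM, means of 547, 1240.3 and 512 TPM and log2 ratios of 1.18 and -1.28, and its highest values were 1817, 5537 and 1106 TPM. The groups overlapped for both genes. Id4 had means of 9.43, 10.3 and 4.62 TPM, with log2 ratios of 0.12 and -1.01.

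The makeup of the Id transcripts differed along the clusters. By the median cell of clusters 1, 2 and 3, Id1 made 68.97%, 59.6% and 43.9% of Id transcripts and Id2 made 3.67%, 12.6% and 30.6%. Id3 made a like share in all 3, with 23.3%, 25.1% and 25.8%. Id3 exceeded Id2 in 18 of 19 cells of cluster 1 and in 15 of 31 cells of cluster 3. The Id sum had medians of 2223, 4312 and 1910 TPM and the E protein sum 171, 200 and 217 TPM, so that the ratio of the mean sums was 14.3 in cluster 1, 25.0 in cluster 2 and 8.75 in cluster 3.

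**Figure D5:**
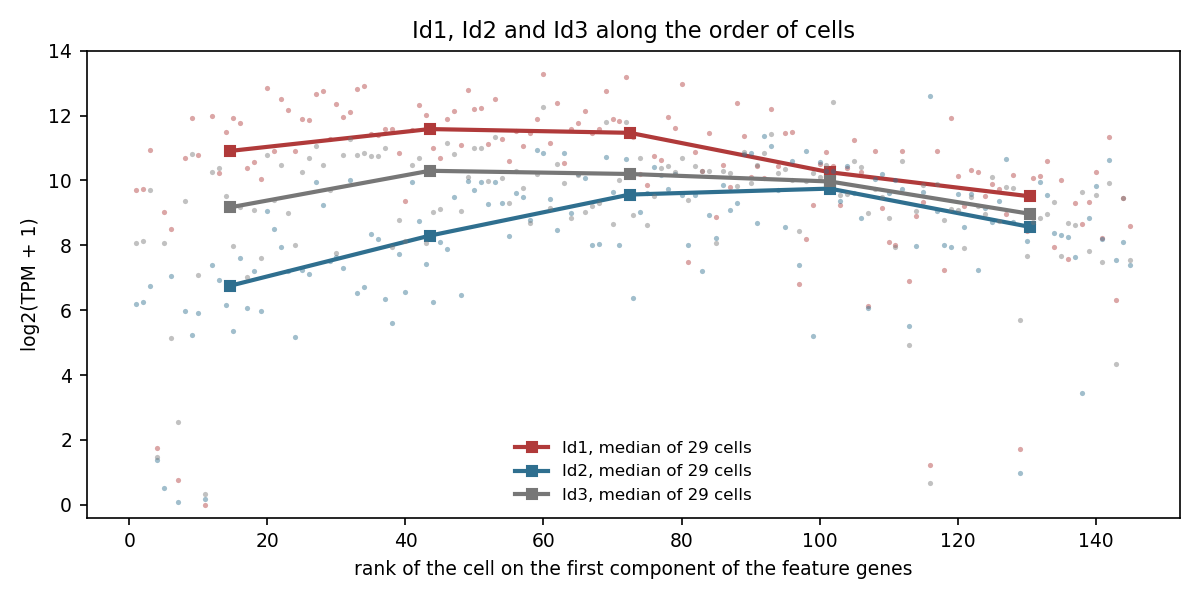
The plot gives log2(TPM + 1) of Id1, Id2 and Id3 in each kept cell against the rank of the cell on the first component of the clustering genes, with the median of each set of 29 cells as squares. Id1 medians go from 1922 to 3072, 2835, 1220 and 729 TPM and Id2 medians from 106.7 to 314, 757, 860 and 379 TPM. On this log scale they lie closest in the fourth set.

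In 5 sets of 29 cells along the order of the first component, the median of Id1 was 1922, 3072, 2835, 1220 and 729 TPM. That of Id2 was 106.7, 314, 757, 860 and 379 TPM, and that of Id3 575, 1259, 1176, 1002 and 501 TPM. The highest median of Id1 was thus in the second set and that of Id2 in the fourth. The cells of every neighbouring pair of sets overlapped. When the cells were split into 3 sets of equal size instead of clusters, the log2 ratio of Id1 between the first and the second was -0.004, so the higher Id1 of cluster 2 depends on the grouping, whereas Id2 gave 1.94.

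In all, 4 of 9 members were at least 1.5-fold (0.58 on the log2 scale) higher in cluster 2 than in cluster 1, namely Id1, Id2, Id3 and Smad4, beside 22% of the 13867 detected coding genes. Of these, Smad4 fell short with means of log2 values (0.31) and Id1 with clusters of variable genes (0.34), and with 3 sets of equal size Id1 (-0.004) and Id3 (0.48) did. None was that much lower, beside 19.6% of all genes. Between clusters 2 and 3 none was higher, beside 15.2% of all genes, and 5 were lower in cluster 3, namely Id1, Id3, Id4, Smad4 and Smad6, beside 26.9%. With repeats counted once, an alternative chosen after seeing the data, the same genes passed in these comparisons and Smad6 also passed for cluster 2 below cluster 1 (-0.60). The median log2 ratio over all genes was 0.04 and -0.17, and over the 9 members 0.37 and -0.67. Scaled per spike-in, which keeps differences in RNA content, the median over all genes for cluster 3 over cluster 2 was 0.53, with 47.2% of genes higher and 8.09% lower, and for cluster 2 over cluster 1 it was -0.09, with 18.5% higher and 26.4% lower. With means of log2 values, 22.6% of genes were higher and 11.1% lower in cluster 3 than in cluster 2, and 13.2% higher and 23.1% lower in cluster 2 than in cluster 1. Per spike-in, the log2 ratio of cluster 3 over cluster 2 was -0.90 for Id1, -0.23 for Id3 and 0.68 for Id2, so that Id1 and Id3 lay below the median of all genes and Id2 near it.

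Of the 5 listed Smads, Smad4 and Smad6 passed 1.5-fold between neighbouring clusters. Smad4 averaged 21.5, 38.2 and 23.6 TPM in the 3 clusters, but its medians were 11.6, 7.67 and 19.2 TPM, and the lower level in cluster 3 turned with the scale, with a log2 ratio of -0.67 in TPM, 0.09 in CPM and 0.06 per spike-in. It was also short of 1.5-fold without cell 41, the highest cell at 261 TPM. The length implied by reads and TPM had quartiles between cells of 1273 and 2929 bases for Smad4 and 1314 and 6060 bases for Smad5. That of Id1 had 653 and 690. The part of this in the ratios was not tested. Smad5 had means of 23.6, 17.01 and 14.3 TPM and Smad1 8.39, 7.75 and 6.84 TPM. Smad6 had means of 3.14, 2.40 and 0.37 TPM and was found at 1 TPM in 5 of 19, 12 of 95 and 3 of 31 cells. Its log2 ratio for cluster 3 over cluster 2 was -1.31. It fell short of 1.5-fold with means of log2 values (-0.27), clusters of variable genes (-0.50) and 3 sets of equal size (-0.52). The mean of cluster 2 leans on cell 58 and its repeat, at 58.2 and 58.1 TPM: it was 1.73 TPM with repeats counted once (ratio -0.997) and 1.08 TPM without both libraries of that cell (ratio -0.61). Without both libraries, an alternative chosen after seeing the data, Smad6 also passed 1.5-fold lower in cluster 2 than in cluster 1 (-0.99, against -0.28 with all kept cells). Smad7 had means of 0.99, 1.58 and 0.83 TPM. Leaving out 1 cell moved Smad5 past 1.5-fold lower in cluster 2 (-0.69 without cell 17) and Smad7 past 1.5-fold higher (0.90 without cell 65 and 0.59 without cell 100). Smad7 also passed 1.5-fold lower in cluster 3 without its highest cell there, at 7.07 TPM (-0.67), or cell 19 (-0.59).

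Smad4, Smad1 and Smad7 at 1 TPM were found in the largest share of cells in cluster 3, where more genes were read. Smad4 was found in 57.9% of cells in cluster 1 (exact 95% interval 33.5 to 79.7%), 61.1% in cluster 2 (50.5 to 70.9%) and 87.1% in cluster 3 (70.2 to 96.4%). Smad1 was found in 36.8%, 37.9% and 61.3% of cells and Smad7 in 10.5%, 17.9% and 22.6%. The share was highest in cluster 1 for Smad5 (78.9%, 51.6% and 67.7%) and Smad6 (26.3%, 12.6% and 9.68%). With reads thinned to one total, at least 1 read of Smad4 was found in 68.4%, 76.8% and 96.8% of cells and of Smad1 in 47.4%, 49.5% and 74.2%. The median number of genes read was 12424, 12231 and 14506 in the 3 clusters, and the median share of reads on spike-ins was 0.35%, 0.44% and 0.25%. The part of RNA content in these shares was not tested.

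The rest of the pathway was taken from lists of 56 genes, of which 51 were detected. Of the 13 ligands of the BMP and TGF-beta family, 11 were detected, and most were near 0: Bmp4 had a mean of 0.068 TPM with 2 cells at 1 TPM or more, Bmp2 one of 0.20 TPM, Bmp15 0.88 TPM, Bmp6 1.42 TPM and Bmp7 2.52 TPM. Gdf9, an oocyte growth factor and one of the clustering genes, had 28.7 TPM. Receptors for BMPs were present, with means of 26.1 TPM for the type I receptor Bmpr1a (median 18.1), 9.06 TPM for the type II receptor Bmpr2 (median 6.66), 7.87 TPM for Acvr2a and 10.0 TPM for Acvr2b, while Bmpr1b had 1.11 TPM and Acvr1 1.63 TPM. Tgfbr1 had 19.6 TPM and Tgfbr2 0.19 TPM. Smad9, the third BMP-type Smad, had 0.62 TPM. Of the Smads of the activin and TGF-beta branch, Smad2 had 57.3 TPM and Smad3 4.42 TPM.

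Apart from Gdf9, Sohlh1 and Figla, which helped to make the clusters, 48 listed genes could be compared between clusters. Of these, 17 were 1.5-fold or more higher in cluster 2 than in cluster 1, beside 22% of all genes, and 5 were lower, beside 19.6%, with a median log2 ratio of 0.32 beside 0.04. Between clusters 2 and 3, 13 were higher and 14 lower in cluster 3, beside 15.2% and 26.9% of all genes, with a median of -0.18 beside -0.17. Smad3 averaged 0.07, 2.45 and 13.1 TPM over clusters 1, 2 and 3 (log2 ratios 1.68 and 2.04), and Smad2 had 89.8, 57.8 and 35.8 TPM. The ligand gene Tgfb2 had 0.02, 0.66 and 7.26 TPM. The SMAD corepressor gene Skil had 42.04, 13.03 and 4.26 TPM, Tob1, which encodes an antiproliferative protein that binds Smads, had 46.9, 30.3 and 10.2 TPM, and the corepressor gene Ski had 11.1, 16.1 and 36.1 TPM. The ubiquitin ligase gene Smurf1 had 4.39, 11.8 and 14.5 TPM and Smurf2 20.4, 19.4 and 11.6 TPM.

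Few listed genes followed an Id gene across cells. A rho of at least 0.3 with Id1 was seen for Tob1 (0.38) and Hes1 (0.30), 2 of 51 genes beside 1.72% of all detected genes. A rho of -0.3 or below was seen for 4 genes beside 3.45%: Gdf9 (-0.49), the cell cycle inhibitor gene Cdkn1b (-0.41), Smad3 (-0.36) and Tgfb2 (-0.33). With Id2, the 4 genes at 0.3 or more were Sohlh1 (0.46), Figla (0.42), Bhlhe41 (0.40) and Hes1 (0.39), beside 0.901% of all genes, and Tob1 (-0.31) was the only listed gene at -0.3 or below, beside 1.62%. The study tied these helix-loop-helix genes to Id2 by a network inferred from these same cells, so their values are a description and nothing is read from the background share. Of the same list, Hes6 gave 0.22, Sohlh2 -0.15, Bhlhe40 -0.13 and Hey1 -0.10 with Id2. With Id3, Hes6 (0.35) and Hes1 (0.31) reached 0.3, beside 0.108%, and Smad3 (-0.32) was below -0.3, beside 0.519%. No receptor reached 0.3 in size with Id1, Id2 or Id3: Bmpr1a gave 0.09, 0.04 and 0.15 and Bmpr2 0.04, 0.17 and 0.10. Bmpr1b, at 1 TPM or more in only 14 cells, gave -0.22, -0.10 and -0.27. Its means over clusters 1, 2 and 3 were 0.03, 0.64 and 3.22 TPM.

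The E proteins, the partners of ID proteins, had lower mean levels than Id1, Id2 and Id3. Tcf12 had a mean of 94.1 TPM (85.1, 93.5 and 101.3 TPM over the 3 clusters), Tcf3 81.7 TPM (63.9, 78.1 and 103.7 TPM) and Tcf4 27.2 TPM (14.7, 27.5 and 34.1 TPM). Of these 3, Tcf4 was 1.5-fold or more higher in cluster 2 than in cluster 1, with a log2 ratio of 0.86, and none passed that fold between clusters 2 and 3. Their rho with Id1, Id2 and Id3 lay between -0.21 and 0.20. The Notch target Hes1 had means of 12.7, 244 and 214 TPM and its relative Hes6 60.8, 143.9 and 87.8 TPM, and Bhlhe41 had 10.6, 87.3 and 56.03 TPM. Of the cell cycle inhibitor genes listed, Cdkn1a, which encodes p21, had 2.40, 5.59 and 12.2 TPM in the 3 clusters, with a rho of -0.24 with Id1 and 0.20 with Id2. Cdkn1b, which encodes p27, had 3.18, 1.89 and 20.4 TPM, and Cdkn2a, the gene of p16, had 3.40, 5.75 and 1.60 TPM, with a rho of 0.09 with Id1.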

How the data were processed

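The data are Smart-seq2 libraries of 146 labelled single cells, picked as germ cells, each with ERCC spike-in RNA. The authors quantified each cell with Salmon, with sequence bias correction, on mm10 with spike-ins, and deposited TPM and estimated counts per gene symbol. TPM has one fixed sum per cell and hides differences in total RNA; estimated counts are not normalized. Of the symbols, 24564, with a mean of 12.3% of TPM, matched no GENCODE M21 or RefSeq gene and entered no count of coding genes. Cells with Ddx4 below 1 TPM were left out. The 3 clusters come from Seurat 5.3.0 run under R 4.3.3 on 20 feature genes (10 components and 20 neighbours, at resolution 0.2, where 3 groups first appeared), and differ from the study's in size. Spearman's rho, log2 ratios of mean TPM with a pseudocount of 1 TPM, and shares of cells with exact 95% intervals were computed in Python 3.11.15 (pandas 2.3.3, NumPy 2.4.6, SciPy 1.17.1), and the calculations were tested on simulated data. Libraries with a Pearson r of at least 0.95 over detected coding genes were taken as repeats. They stayed in the values unless said otherwise, and counting each pair once was an alternative chosen after seeing the data. With no animal named, no test was made. Named genes are the 9 members, the pathway lists and, for each member, the 3 coding genes of highest and the 1 of lowest rho at a mean of at least 10 TPM. Some genes that this rule names are not reported here. The members and lists were chosen with earlier results of these data known. Alternatives were other scalings (CPM, spike-ins, thinned reads), pseudocounts, detection rules, groupings and left-out cells.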

Additional observations from a re-analysis of the deposited data

How the results depend on the processing

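The median rho stayed within 0.1 of 0.31 for Id pairs, of 0.05 for Smad pairs and of -0.004 for Id and Smad pairs under every alternative run, from Pearson's r of log2(TPM + 1) to thinned reads, repeats counted once, the 146 cells and each cell left out. Over those alternatives the Id pairs ranged from 0.28 (CPM) to 0.41 (Pearson's r). Within clusters 1, 2 and 3 the median was 0.55, 0.30 and 0.31 for Id pairs and 0.19, 0.06 and 0.02 for Smad pairs. For Id and Smad pairs it was 0.04, 0.05 and -0.07. Under the alternatives, the counts of members between clusters moved more. Against 0 members lower in cluster 2 than in cluster 1, there was 1 per spike-in (Smad5), 1 with means of log2 values (Smad5), 1 with clusters of the 2000 most variable genes (Smad6) and 1 without cells of 100 TPM or more of other cell types' markers (Smad6) and 1 with repeated libraries counted once (Smad6), both chosen after seeing the data. In those settings 20.0 to 26.4% of all genes were lower. With 3 equal bins, 2 members were higher (Id2 and Smad4), beside 14.4% of all genes, and 2 lower (Smad1 and Smad6), beside 20.1%. With each cell left out, the number lower ranged from 0 to 1. Against 0 higher and 5 lower in cluster 3 than in cluster 2, there were 3 higher (Id2, Smad1 and Smad5) and 3 lower per spike-in. There the median of all genes lay at 0.53, with 47.2% of genes higher and 8.09% lower. With means of log2 values 3 members were lower (Id1, Id3 and Id4), beside 11.1% of all genes. With CPM 4 were lower (without Smad4), beside 23.5%. Clusters of variable genes and 3 equal bins also gave 4 lower (both without Smad6), beside 26.8% and 20.6%. The log2 ratio of Smad4 for cluster 3 over cluster 2 turned from -0.67 to 0.087 with CPM, 0.060 per spike-in and 0.56 with means of log2 values, and that of Id1 for cluster 2 over cluster 1 from 0.82 to -0.0039 with 3 equal bins. Other counts rose. Without cells of other markers, 6 members were higher in cluster 2 than in cluster 1 (with Id4 at 0.65 and Smad7 at 1.27), beside 27.3% of all genes. In the same setting 7 were lower in cluster 3 than in cluster 2 (with Smad1 at -0.62 and Smad5 at -1.07), beside 27.4%. Smad7 was also higher in cluster 2 with CPM (0.62) and a pseudocount of 0.1 TPM (0.62), and lower in cluster 3 with that pseudocount (-0.86) and with Ward clusters (-0.67). The cause was not tested. Id1 and Id4 were lower in cluster 3 under all alternatives run, and Id2 higher in cluster 2. No paired analysis was possible because all cells form 1 group.

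The absence of a Smad or Id4 from a cell shows only that it was not read. Thinning to 4100000 reads lowered the cells with a read from 27 to 25 for Smad6 and from 41 to 38 for Smad7. Cells of 1 litter without a named animal give no error for any mean, and transcripts do not show phosphorylated Smads or ID protein.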
